A study of Mus musculus with 8 samples.

Results

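The comparison asked what estradiol does to gene expression over 2 hours in cells that receive dexamethasone at the same time. It sets 2 arrays of cells given dexamethasone and estradiol together (Dex+E2) against 2 arrays of cells given dexamethasone alone (Dex), chosen by their sample titles from the 8 arrays of the study. The other 4 arrays, 2 of cells given estradiol alone (E2) and 2 of untreated cells, are used to give the estradiol effect in the absence of dexamethasone. Dexamethasone, a synthetic glucocorticoid, and estradiol, the main estrogen, were each given at 100 nM. Cells of all 4 groups belong to the 7438 line, mouse mammary cells in which a tetracycline-regulated promoter drives both a GFP-tagged glucocorticoid receptor (GFP-GR) and a Cherry-tagged estrogen receptor (Cherry-ER). Tetracycline had been absent for 24 hours, in medium with charcoal-dextran-treated serum, in all groups, untreated cells included, so every group had both tagged receptors switched on, and the cells had been plated 48 hours earlier. The values are log2 signals after robust multi-array averaging (RMA), and a difference of 1 on this scale is a 2-fold change.

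Glucocorticoid and estrogen receptors are nuclear receptors: each binds its hormone, associates with DNA at response elements or through other factors such as AP-1, and alters the transcription of nearby genes. Both are studied in mammary cells, where estrogen drives growth programmes and glucocorticoids support differentiation and restrain inflammation. When both are active, each can alter where the other one binds and which genes it reaches.

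The labels call the arrays of a group replicates 1 and 2 and do not say whether they came from separate cultures. The p-values therefore reflect the scatter between 2 arrays of a group, and that scatter may be technical. For E2 replicate 2 and Dex+E2 replicate 1 the description field names a GR-ChIP experiment, although title and treatment agree on the groups used here. The Dex+E2 arrays differed most from each other: 390 of 18194 genes differed by more than 0.5 log2 units between them, against 19 genes between the Dex arrays, 95 between the E2 arrays and 56 between the untreated arrays. Among the markers used to check the cell type, probe sets of mesenchymal genes were bright and those of several epithelial genes dim. Vimentin (Vim) stood at percentile 99.9 of mean level over all genes and the epithelial cadherin Cdh1 at percentile 2.14, while Epcam was at percentile 52.3. Percentiles of different probe sets are only a rough guide to transcript level, and nothing further is read from them about the cells' identity.

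Adding estradiol to dexamethasone changed few genes. Of 18194 genes, 2 passed the threshold, both higher in Dex+E2 than in Dex cells, and 0 were lower (limma, Benjamini-Hochberg adjusted p under 0.05). That is 0.011% of the genes tested. The 2 genes were Tmem86a, which encodes an enzyme that hydrolyses lysoplasmalogens in ether lipid turnover, and Zfp52, which encodes a zinc finger protein. At an unadjusted p under 0.05, 469 genes were higher (2.58%) and 380 were lower (2.09%), 849 in all, which is fewer than 1 in 20. The 2 Dex+E2 arrays lay wholly above or wholly below the 2 Dex arrays for 5685 genes (31.2%). Differences of at least 2-fold were found for 4 genes, Tmem86a, Ttpa, Zfp52 and Celsr1, all higher, and for 0 genes lower. The median difference over all genes was -0.00034 and its standard deviation over genes 0.122, against a median standard error of 0.0964 for a single gene.

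**Figure D1:**
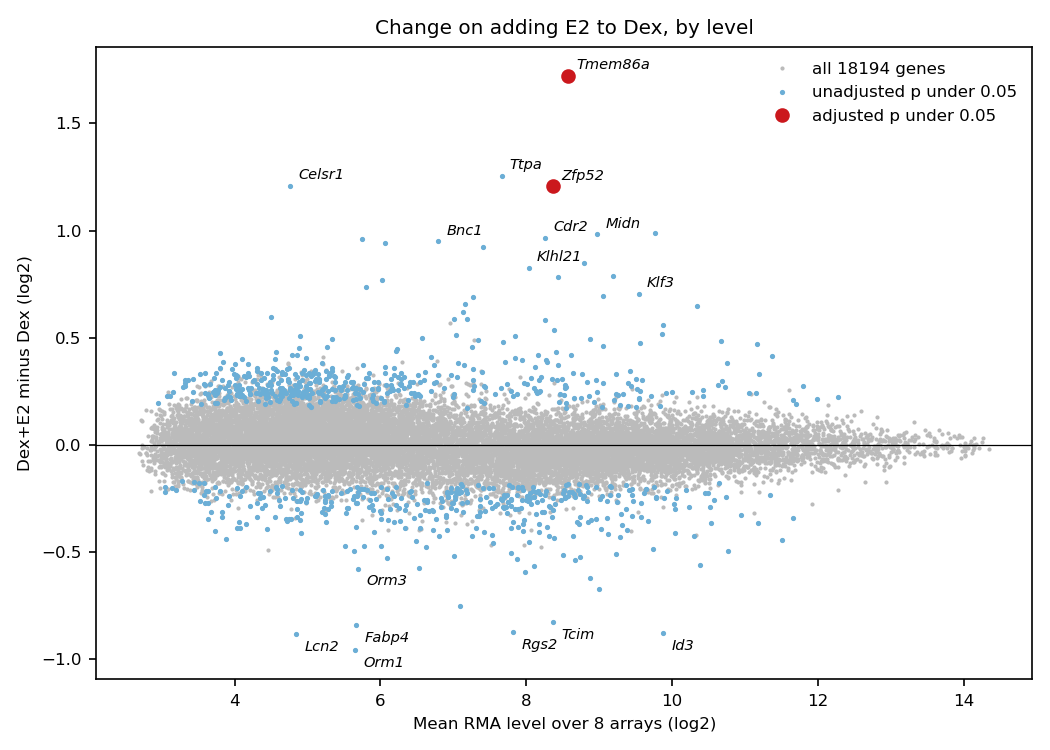
Difference between Dex+E2 and Dex (vertical axis, log2) against mean level over the 8 arrays (horizontal axis, log2 RMA signal), 1 point per gene. Tmem86a and Zfp52, in red, are the 2 genes past the adjusted threshold, blue points have an unadjusted p under 0.05, and most of the 18194 genes lie close to 0.

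Tmem86a, on chromosome 7, had log2 levels of 8.89 and 9.50 in Dex+E2 cells, against 7.39 and 7.56 in Dex cells. Both Dex+E2 arrays lay more than 1 log2 unit above both Dex arrays. The gene rose by 1.72 ± 0.18 log2 units (standard error, 95% confidence interval 1.33 to 2.12), a 3.3-fold change, with an adjusted p of 0.0184. Without dexamethasone its levels were 9.49 and 9.83 in E2 cells, against 7.95 and 7.95 in untreated cells, a difference of 1.71. The estradiol effect on Tmem86a with dexamethasone minus that without it (the interaction) was 0.01 ± 0.25, so the gene responded by about the same amount in both settings, within that error. Its single probe set leaves no second reading of the gene.

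Zfp52, on chromosome 17, had log2 levels of 8.93 and 8.96 in Dex+E2 cells, against 7.72 and 7.75 in Dex cells. The arrays of each group were close together and the groups did not overlap. The gene rose by 1.21 ± 0.13 (95% confidence interval 0.93 to 1.49), a 2.31-fold change, with an adjusted p of 0.0184. A second, dimmer probe set of Zfp52 read 5.23 and 5.14 in Dex+E2 cells and 4.04 and 4.18 in Dex cells. Its difference of 1.08 passed too when every probe set was tested separately (adjusted p = 0.0266). In the absence of dexamethasone Zfp52 differed by 1.88 between E2 and untreated cells, with levels of 9.11 and 9.54 against 7.37 and 7.52. The interaction of -0.67 ± 0.18 did not pass (adjusted p = 0.852).

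Both calls depend on which arrays enter the fit. Each gene was called under 12 of 17 other settings. Without untreated replicate 1 or 2 and without Dex replicate 1 or 2, neither gene passed, with adjusted p up to 0.533. Tmem86a also missed the threshold with only the 4 arrays compared (adjusted p = 0.0841) and Zfp52 without Dex+E2 replicate 2 (adjusted p = 0.125). Their differences stayed positive in all 17 settings, from 1.42 to 2.03 for Tmem86a and from 1.14 to 1.23 for Zfp52.

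The promoters of these 2 genes are shown because they are the genes that carried the call, and that of Orm3, an orosomucoid gene of the acute-phase response, because it had the smallest p among the lower genes. Each sequence runs from 250 bases before to 50 bases after the RefSeq start site (GRCm38.p6, plus strand for all 3), at chr7:47050390-47050689 for Tmem86a, chr17:21535289-21535588 for Zfp52 and chr4:63355908-63356207 for Orm3. Capitals mark a match to the AP-1 element.
Tmem86a promoter: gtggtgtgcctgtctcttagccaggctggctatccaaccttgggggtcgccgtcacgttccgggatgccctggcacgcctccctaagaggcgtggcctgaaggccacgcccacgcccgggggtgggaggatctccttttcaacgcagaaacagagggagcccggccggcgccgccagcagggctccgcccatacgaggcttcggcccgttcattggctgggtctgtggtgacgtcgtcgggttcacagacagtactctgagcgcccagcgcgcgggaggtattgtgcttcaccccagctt
Zfp52 promoter: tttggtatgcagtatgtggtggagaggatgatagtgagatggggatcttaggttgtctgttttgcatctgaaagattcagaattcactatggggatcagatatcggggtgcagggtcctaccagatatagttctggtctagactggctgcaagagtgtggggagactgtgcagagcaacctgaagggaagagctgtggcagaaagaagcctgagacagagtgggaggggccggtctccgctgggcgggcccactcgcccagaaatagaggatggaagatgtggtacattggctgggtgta
Orm3 promoter: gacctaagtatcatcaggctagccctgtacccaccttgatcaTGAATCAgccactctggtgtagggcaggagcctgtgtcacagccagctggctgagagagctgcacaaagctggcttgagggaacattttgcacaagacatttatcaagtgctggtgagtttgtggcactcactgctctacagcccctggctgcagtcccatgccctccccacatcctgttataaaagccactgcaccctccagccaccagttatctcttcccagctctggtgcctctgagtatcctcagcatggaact
These spellings were searched on both strands: the palindromic estrogen response element (GGTCA, any 3 bases, TGACC), the glucocorticoid response element (GNACA, any 3 bases, TGTNC) and the AP-1 element (TGANTCA), with N for any base. None of these was found in the Tmem86a or Zfp52 window, and Orm3 held the AP-1 spelling at bases 43 to 49 of its window. Over 32851 RefSeq promoters of this length, 0.07% held the estrogen element, 0.475% the glucocorticoid element and 7.81% the AP-1 element. The 20 genes that led the comparison by p, 10 in each direction, were also looked up: 18 had a promoter in the table, with 21 start sites, of which 0 held either steroid element and 5 (23.8%) the AP-1 element. These are letters in a short window, and response elements farther away were not searched.

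Behind the 2 called genes stood a group of genes that were higher in Dex+E2 cells and did not pass the threshold. Celsr1, an atypical cadherin of planar cell polarity, read 5.22 and 5.59 in Dex+E2 cells and 4.20 and 4.19 in Dex cells. Its difference was 1.21 ± 0.15 (adjusted p = 0.0619), and it was called under 8 of 16 other settings. Celsr1 was dim, at percentile 22.7 of mean level over all genes. Klf3, a Krüppel-like transcriptional repressor, read 9.62 and 9.44 in Dex+E2 cells against 8.86 and 8.79 in Dex cells. Against untreated cells Klf3 differed by -0.99 in Dex cells, by -0.28 in Dex+E2 cells and by 0.19 in E2 cells. The Klf3 difference of 0.71 ± 0.09 (adjusted p = 0.0635) rests on 1 of 7 probe sets, and the other 6 gave differences from -0.14 to 0.54. Klhl21, a substrate adaptor of Cul3 ubiquitin ligases, read 8.46 and 8.81 in Dex+E2 cells against 7.79 and 7.83 in Dex cells (difference 0.83 ± 0.11, adjusted p = 0.0635). Its second, dim probe set differed by 0.02. For these 3 genes, picked by p in this same comparison, both Dex+E2 arrays lay above both Dex arrays. Of all genes 31.2% did not overlap, in either direction.

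Bnc1, a zinc finger transcription factor of epithelial cells, read 6.88 and 7.01 in Dex+E2 cells and 6.02 and 5.97 in Dex cells. The difference of 0.95 ± 0.13 (adjusted p = 0.0746) equalled, within its error, the 0.97 by which E2 cells exceeded untreated cells. Vegfa, the vascular endothelial growth factor, read 9.28 and 9.58 in Dex+E2 cells against 8.73 and 8.55 in Dex cells (difference 0.79 ± 0.12, adjusted p = 0.0996). A second Vegfa probe set differed by 0.21. Cdr2, which encodes a neuronal autoantigen of cerebellar degeneration, differed by 0.97 (adjusted p = 0.0996), Midn, whose product delivers proteins to the proteasome, by 0.98 and the tenascin gene Tnxb by 0.74 (adjusted p = 0.186 for both). Ttpa, the vitamin E transfer protein, read 7.92 and 8.55 in Dex+E2 cells against 6.95 and 6.998 in Dex cells. Its difference of 1.26 ± 0.25 did not pass (adjusted p = 0.308).

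No gene lower in Dex+E2 cells passed the threshold, and the lower gene with the smallest p was Orm3. It read 6.12 and 6.13 in Dex+E2 cells and 6.74 and 6.67 in Dex cells. Its difference was -0.58 ± 0.08 (adjusted p = 0.0754). The 2 Dex+E2 arrays lay between the Dex arrays and the untreated arrays, which read 4.81 and 4.91, and E2 cells read 5.08 and 5.05. Lcn2, the secreted siderophore binder lipocalin 2, read 5.45 and 4.86 in Dex+E2 cells against 5.98 and 6.10 in Dex cells (difference -0.89 ± 0.17, adjusted p = 0.273). Lcn2 was dim, at percentile 24.3 of mean level. Id3, an inhibitor of DNA binding by helix-loop-helix factors, read 9.43 and 8.97 in Dex+E2 cells against 10.11 and 10.05 in Dex cells. The Id3 difference of -0.88 ± 0.15 (adjusted p = 0.186) stands beside one of -0.79 for E2 against untreated cells. In Lcn2 and Id3 alike, Dex+E2 replicate 2 was the lower of its pair.

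The remaining lower genes by p were Trim30d, Tcim, Chka, Mideas, Denn2b, S100a7l2 and Ccnj. Their differences ran from -0.83 for Tcim, a small transcriptional regulator, to -0.39 for Denn2b, a DENN-domain protein. Chka, choline kinase alpha, differed by -0.46 and had all 3 of its probe sets lower in Dex+E2 cells. Both probe sets of Tcim were lower as well, by 0.83 and 0.62 log2 units. Other, dimmer probe sets differed by 0.03, 0.07 and -0.04 for Mideas and by -0.16 for Trim30d. Ccnj, cyclin J, read 7.15 and 6.65 in Dex+E2 cells against 7.52 and 7.78 in Dex cells. S100a7l2 was dim, at percentile 9.15 of mean level. No gene of this group overlapped between Dex+E2 and Dex arrays, where 31.2% of all genes did not overlap in either direction. The group was picked by p in this same comparison, which favours such a separation. Their adjusted p ran from 0.186 to 0.412.

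**Figure D2:**
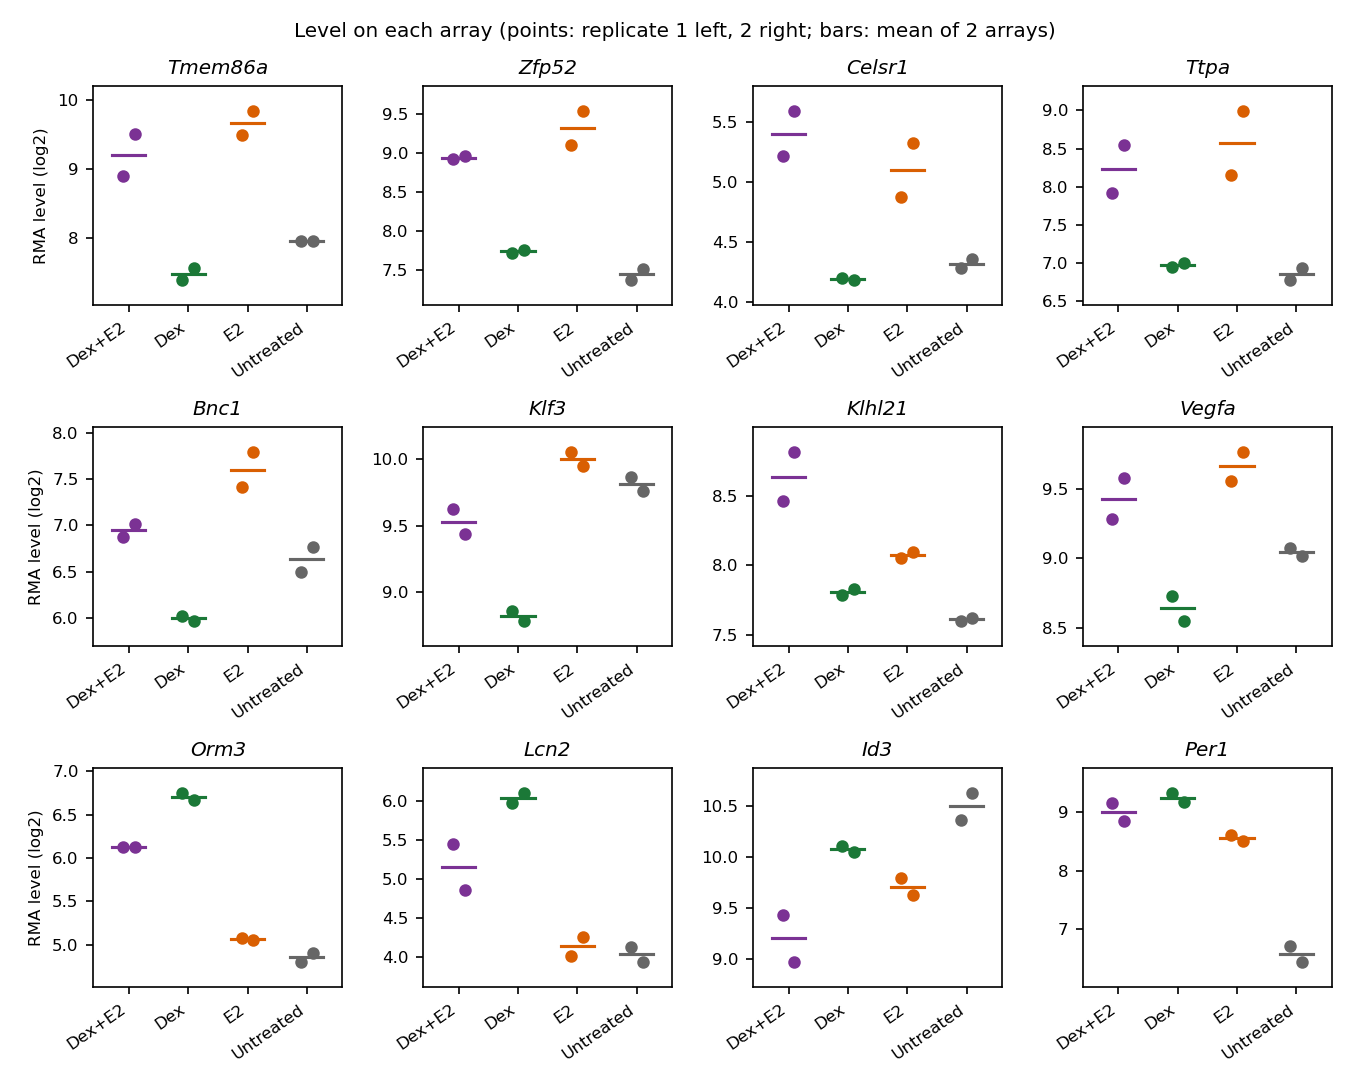
Log2 RMA level on each of the 8 arrays (points) and the mean of each pair (bars) for 12 genes, with the vertical scale set per gene. In Tmem86a and Zfp52 both Dex+E2 arrays lie more than 1 log2 unit above both Dex arrays, while Orm3, Lcn2 and Id3 lie lower in Dex+E2 than in Dex cells and Per1 is high in all 3 hormone groups.

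The direction in which the Dex+E2 replicates differed coincided with the direction of the differences. Of the 469 genes higher in Dex+E2 cells at an unadjusted p under 0.05, 389 (82.9%) had a higher value on replicate 2 than on replicate 1, against 55.2% of all genes. Of the 380 lower genes, 285 (75%) had a lower value on replicate 2, whereas 55.2% of all genes had a higher one there. Without Dex+E2 replicate 1, 81 genes were called, 34 higher and 47 lower, and without Dex+E2 replicate 2, 1 gene was called. The part of this gap between replicates in the differences was not tested.

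Estradiol without dexamethasone was measured on arrays that are not among the 4 compared here, although all 8 share 1 estimate of the spread. In that setting 19 genes were called higher and 0 lower (0.104% of genes tested; with no adjustment, 645 higher and 479 lower at p below 0.05). In the presence of dexamethasone 2 of these 19 genes were called, Tmem86a and Zfp52, and 6 of the 19 (31.6%, against 2.58% of all genes) were higher at an unadjusted p under 0.05. The other 4 were Ttpa, Bnc1, the clock repressor Per2 and the kinase gene Pim1, which was picked after its value was known. The count was 5 to 7 when an array was left out or the scaling, array weights or probe set rule was altered. Of the 19 genes 13 (68.4%) were above 0, against 49.8% of all genes, with a median of 0.17.

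The 19 genes differed in what dexamethasone alone did to them. With dexamethasone alone 13 of them were called higher than in untreated cells (0.863% of all genes were), and for these the estradiol effect had a median of 0.09 with dexamethasone present, ranging from -0.24 to 0.37, and of 1.08 without it. For the other 6, Tmem86a, Zfp52, Ttpa, Bnc1 and, named after their values were seen, Micall1 and Pim1, the median was 1.08 with dexamethasone, ranging from 0.17 to 1.72, and 1.34 without it. The E2 and Dex effects share the untreated arrays, where a chance low value raises both. Sorting genes by the Dex arrays uses arrays of the comparison itself. A chance high value on a Dex array raises the Dex effect and lowers Dex+E2 minus Dex. The count of 13 and these medians are therefore given as a description. Per2 read 7.50 and 7.59 in Dex+E2 cells against 7.21 and 7.14 in Dex cells, a difference of 0.37 ± 0.11, where E2 cells had exceeded untreated cells by 1.16.

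Per1, the clock repressor gene that dexamethasone and estradiol each raised, was the 1 gene whose estradiol effect differed with and without dexamethasone past the threshold. It read 9.16 and 8.84 in Dex+E2 cells and 9.32 and 9.17 in Dex cells. Without dexamethasone it read 8.62 and 8.50 in E2 cells and 6.72 and 6.45 in untreated cells. The estradiol effect was thus -0.24 with dexamethasone (95% confidence interval -0.53 to 0.04, adjusted p = 0.999) and 1.97 without it, and the interaction was -2.21 ± 0.18 (adjusted p = 0.00348). It was the only call among 18194 interactions (0.0055%; 523 above 0 and 482 below 0 at an unadjusted p under 0.05, limma), and it was lost without Dex replicate 1. The interaction lay below 0 for 18 of the 19 estradiol-called genes, 16 of them at an unadjusted p under 0.05 (2.65% of all genes were). A gene picked for a high E2 minus untreated value is drawn toward a negative interaction, since both use the same arrays.

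Other genes called with estradiol alone also had smaller estradiol effects with dexamethasone than without it, and none of these passed the interaction threshold. Sphk1, sphingosine kinase, read 10.92 and 10.74 in Dex+E2 cells and 11.18 and 10.93 in Dex cells, with an interaction of -1.49 (adjusted p = 0.0916). Arrdc2, an arrestin-domain gene, differed by 0.13 with dexamethasone and by 1.61 without it (interaction adjusted p = 0.309). Il6ra, the interleukin 6 receptor, differed by -0.13 with dexamethasone and by 1.14 without it. Pdk4, a kinase that restrains pyruvate oxidation, differed by -0.15 with dexamethasone and by 1.05 without it. Cdkn1a, the cell cycle inhibitor p21, read 12.32 and 12.60 in Dex+E2 cells against 12.22 and 12.19 in Dex cells, a difference of 0.26.

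**Figure D3:**
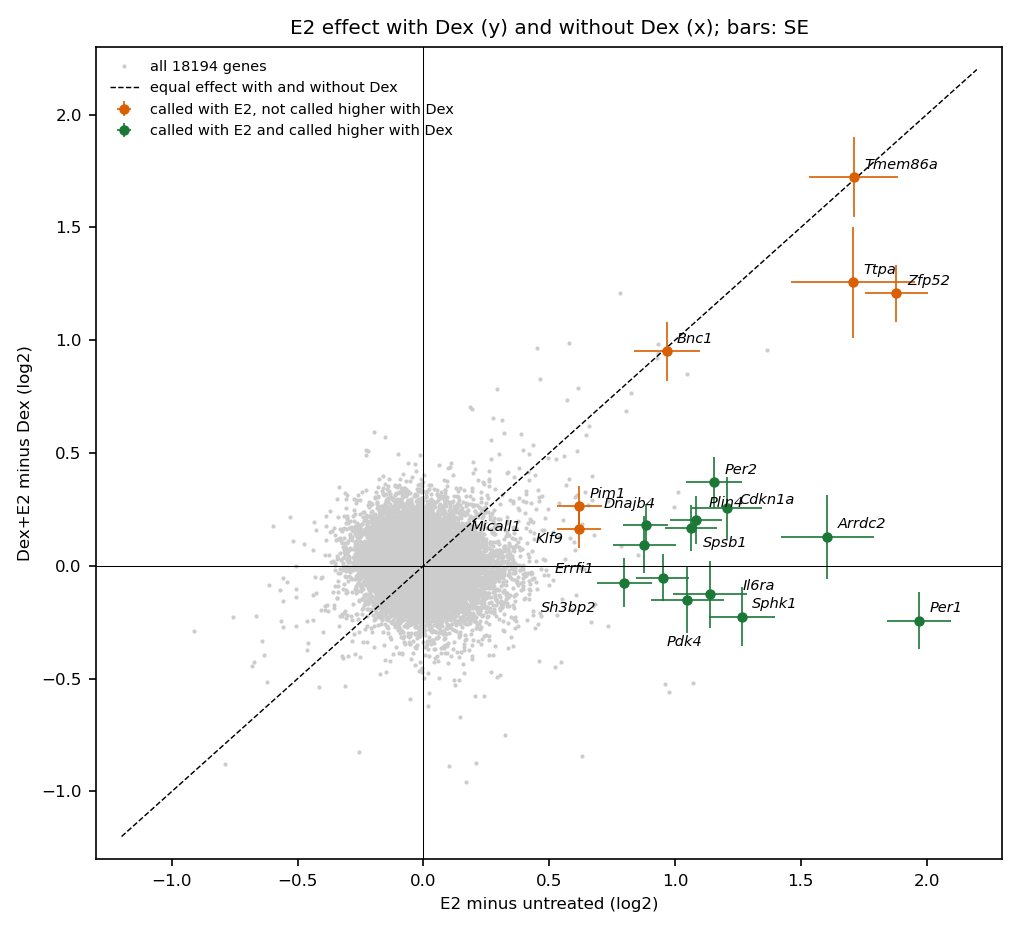
Estradiol effect with dexamethasone (Dex+E2 minus Dex, vertical axis) against that without it (E2 minus untreated, horizontal axis), both in log2 units, with standard errors for the 19 genes called with E2. Tmem86a and Bnc1 sit on the dashed line of equal effects. Zfp52 and Ttpa lie below it, with interactions of -0.67 ± 0.18 and -0.45 ± 0.35. The 13 green genes, called higher with dexamethasone alone, lie between -0.24 and 0.37 on the vertical axis.

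Over all 18194 genes the estradiol effects with and without dexamethasone, which share no array, had a Pearson correlation of 0.0188 and a Spearman correlation of -0.0806. The points are genes on the same arrays and not independent replicates. Of the 469 genes higher in Dex+E2 than in Dex cells at an unadjusted p under 0.05, 49.7% lay above 0 with estradiol alone, against 45.8% of all genes. Of the 380 lower genes, 47.1% lay below 0 with estradiol alone, against 54.2% of all genes.

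Glucocorticoid targets were the gene group with the most members lower in Dex+E2 cells. Of 30 measured targets 0 passed the adjusted threshold, and without adjustment 9 were lower at p under 0.05 and 0 higher (30%, against 2.09% of all genes). In all 22 of 30 lay below 0, and 26.7% lay above it, against 49.8% of all genes. The median was -0.18, against a median close to 0 over all genes. The list was chosen with earlier results of these data known, and 21 of its members were called higher with dexamethasone alone. A chance high value on a Dex array raises the Dex effect and lowers Dex+E2 minus Dex. These shares are therefore given as a description. Named by rule among the 9 were Lcn2, Orm1, Rgs2, Fkbp5 and Tsc22d3. The other 4, named after their values were seen, were Mt1, a metallothionein, at -0.50, Cebpd, a C/EBP transcription factor, at -0.51, Ampd3, AMP deaminase 3, at -0.43 and Glul, glutamine synthetase, at -0.30.

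Orm1, an acute-phase orosomucoid, read 6.29 and 5.74 in Dex+E2 cells against 6.83 and 7.12 in Dex cells (difference -0.96 ± 0.22, adjusted p = 0.451). Rgs2, a regulator of G-protein signalling, read 8.89 and 8.54 in Dex+E2 cells against 9.40 and 9.77 in Dex cells (difference -0.87 ± 0.22, adjusted p = 0.667). Its other 3 probe sets differed by -0.76, -1.001 and, for the dimmest, -0.14. In both genes the groups did not overlap, which held for 31.2% of all genes. Fkbp5, the Hsp90 co-chaperone that feeds back on the glucocorticoid receptor, read 11.62 and 11.32 in Dex+E2 cells against 11.89 and 11.70 in Dex cells. The Fkbp5 difference was -0.33 ± 0.11 (adjusted p = 0.997), and a second well-detected probe set gave -0.49. Tsc22d3, the glucocorticoid-induced leucine zipper, read 11.57 and 10.69 in Dex+E2 cells against 11.90 and 11.48 in Dex cells, and here the groups overlapped. Its other probe sets differed by -0.49, -0.25 and, for the dimmest, 0.35. Sgk1, a glucocorticoid-regulated kinase, differed by -0.21 and also overlapped.

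The same list stayed far above untreated cells in both groups that received dexamethasone. Against untreated cells the median of the 30 targets was 1.11 in Dex+E2 cells, with 20 called higher and 1 lower, and 1.46 in Dex cells, with 21 called higher. Of all genes, 0.802% were called higher and 0.654% lower in Dex+E2 cells, and 0.863% higher in Dex cells. These values share the untreated arrays. With estradiol alone the list lay the other way. In E2 cells 5 of 30 targets were called higher than in untreated cells (0.104% of all genes were) and 0 lower. The median was 0.16, and 23 (76.7%, against 45.8% of all genes) lay above 0. The mean level of the 30 targets was 9.11 to 9.34 over the Dex+E2 arrays and 9.41 to 9.48 over the Dex arrays. For Dex+E2 against Dex, the list's median was -0.40 without Dex+E2 replicate 1 and -0.08 without Dex+E2 replicate 2. It was -0.13 without Dex replicate 1 and -0.21 without Dex replicate 2. The count of lower targets depended on the array left out, as did the share over all genes.

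**Figure D4:**
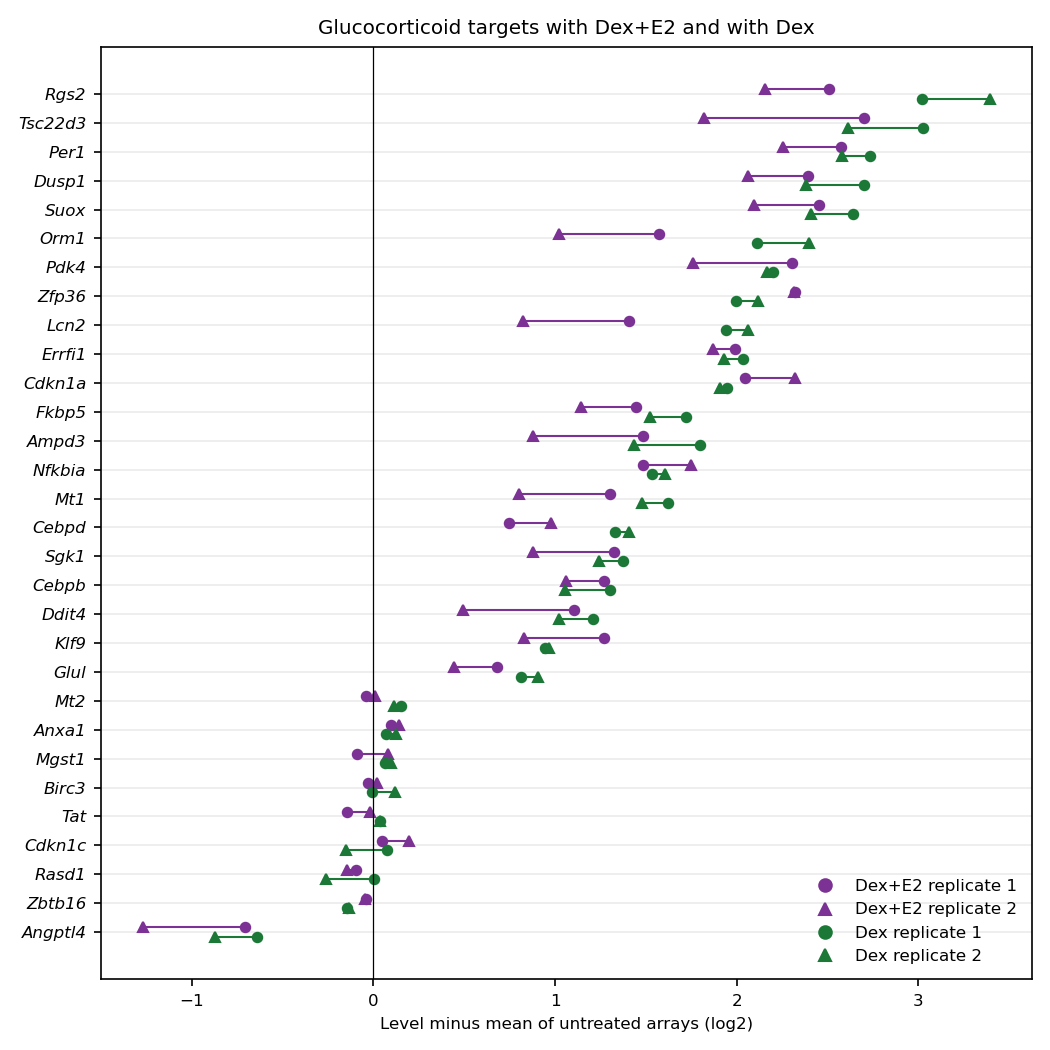
Level of 30 glucocorticoid targets on each Dex+E2 array (purple) and Dex array (green), as the log2 difference from the mean of the untreated arrays, with circles for replicate 1 and triangles for replicate 2. In Lcn2, Orm1 and Rgs2 both Dex+E2 arrays lie left of both Dex arrays, and for most targets replicate 2 is the farther left of the Dex+E2 pair.

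Textbook estrogen targets were centred near 0 when estradiol was added to dexamethasone. Of 30 measured, 0 passed the adjusted threshold. Without adjustment 1 was lower at p under 0.05 (3.33%, against 2.09% of all genes) and 0 higher. The 1 gene was Gata3, a transcription factor of luminal cells, at -0.29. The median was -0.01. These counts depended on single arrays, as did the share over all genes. The median ran from -0.03 without Dex replicate 2 to 0.03 without Dex+E2 replicate 1. Greb1, a growth regulator and standard estrogen target in human breast cells, read 5.95 and 5.96 in Dex+E2 cells against 5.67 and 5.95 in Dex cells (difference 0.14, 95% confidence interval -0.09 to 0.37). All 4 Greb1 probe sets lay higher in Dex+E2 cells, the other 3 by 0.14, 0.21 and 0.47. The last, a dim one, read 4.71 and 4.77 in Dex+E2 cells against 4.31 and 4.23 in Dex cells, and did not pass when every probe set was tested (adjusted p = 0.857). Pgr, the progesterone receptor, read 4.36 and 4.47 in Dex+E2 cells against 4.54 and 4.35 in Dex cells (difference -0.03, 95% confidence interval -0.27 to 0.21). Myc, a transcription factor of cell growth, differed by -0.40 with overlapping arrays. Egr3, a zinc finger transcription factor, differed by -0.21.

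The receptor genes themselves did not pass. Nr3c1, which encodes the glucocorticoid receptor, read 9.71 and 9.34 in Dex+E2 cells against 9.41 and 9.56 in Dex cells (difference 0.04, 95% confidence interval -0.22 to 0.30). Its other 5 probe sets disagreed, with differences from -0.45 to 0.14. The lowest read 7.003 and 7.05 in Dex+E2 cells against 7.31 and 7.65 in Dex cells, without overlap (adjusted p = 0.996 over all probe sets), and the mean of the 6 probe sets differed by -0.13. Esr1, which encodes estrogen receptor alpha, read 7.03 and 7.34 in Dex+E2 cells against 6.98 and 7.18 in Dex cells (difference 0.11, 95% confidence interval -0.25 to 0.46), and its other 2 probe sets differed by -0.18 and -0.02. Whether these probe sets also read the tagged transgenes was not tested. Of 8 steroid receptor genes measured, 0 passed at either threshold. Among 17 receptor chaperones and coregulators, 2 were lower at an unadjusted p under 0.05 (11.8%, against 2.09% of all genes), and 0 passed after adjustment. The 2 were Fkbp5 and Cited2, a CBP/p300-binding coregulator that differed by -0.44.

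Among 18 circadian clock genes, 3 were higher (16.7%, against 2.58% of all genes) and 1 was lower (5.56%, against 2.09%) without adjustment at p under 0.05, and 0 passed after adjustment. Bhlhe40, a transcriptional repressor of the clock, read 9.49 and 9.73 in Dex+E2 cells against 9.23 and 9.04 in Dex cells, a difference of 0.48 ± 0.11. Arntl, the clock activator BMAL1, differed by 0.28, and Per2 by 0.37. Cry1, a clock repressor named after its value was seen, differed by -0.28. In Bhlhe40, Arntl and Per2, the list's genes of smallest p, both Dex+E2 arrays lay above both Dex arrays. Of all genes 31.2% did not overlap, in either direction. The median of the list was 0.02. The counts depend on single arrays, as does the share over all genes. The list's median was -0.01 without Dex replicate 2 and 0.11 without Dex replicate 1. It was -0.003 without Dex+E2 replicate 1 and -0.006 without Dex+E2 replicate 2.

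Of 20 immediate early genes, which respond first to growth signals, 4 were lower at an unadjusted p under 0.05 (20%, against 2.09% of all genes) and 0 were higher. None passed after adjustment, and the median was -0.12. The counts depended on single arrays, as did the share over all genes. The median was -0.07 without Dex replicate 2 and -0.07 without Dex+E2 replicate 2. It was -0.14 without Dex replicate 1 and -0.10 without Dex+E2 replicate 1. Maff, a small Maf factor, read 8.25 and 8.41 in Dex+E2 cells against 8.86 and 8.98 in Dex cells (difference -0.59 ± 0.14, adjusted p = 0.559). Jun, an AP-1 subunit, differed by -0.37, Btg2, an antiproliferative gene, by -0.30 and Ier3, named after its value was seen, by -0.24. Dimmer second probe sets differed by -0.33 for Jun and by 0.005 for Btg2. Among 16 MAPK feedback regulators 1 was higher and 1 lower at that threshold (6.25% each, against 2.58% and 2.09% of all genes). Dusp4, a nuclear MAP kinase phosphatase, read 6.94 and 7.10 in Dex+E2 cells against 6.77 and 6.73 in Dex cells, a difference of 0.27. Against untreated cells Dusp4 differed by -1.22 in Dex cells, by -0.95 in Dex+E2 cells and by -0.04 in E2 cells. Dusp6, a phosphatase of ERK, read 7.93 and 7.60 in Dex+E2 cells against 8.34 and 8.25 in Dex cells, a difference of -0.53.

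Of 30 inflammatory genes 3 were lower at an unadjusted p under 0.05 (10%, against 2.09% of all genes) and 0 were higher, and the list's median was -0.04. The count of 3 depended on single arrays, as did the share over all genes. The median was -0.04 without Dex replicate 1 or without Dex+E2 replicate 2, and -0.03 without Dex+E2 replicate 1. The 3 were Ptx3, Ptgs2 and Tnfaip3. Ptx3, a secreted pattern-recognition protein, differed by -0.51 and Ptgs2, the prostaglandin synthase COX-2, by -0.33. Tnfaip3, a brake on NF-kappaB, differed by -0.26. Dimmer second probe sets differed by -0.05 for Ptx3, -0.48 for Ptgs2 and 0.09 for Tnfaip3. The Ptx3 arrays overlapped, with 8.01 and 7.29 in Dex+E2 cells against 8.35 and 7.98 in Dex cells. Of 20 TGF-beta, SRF and YAP targets 1 was higher (5%, against 2.58% of all genes), the matrix glycoprotein gene Thbs1 at 0.30. Against untreated cells Thbs1 differed by -1.51 in Dex cells, by -1.21 in Dex+E2 cells and by -0.31 in E2 cells. The 2 lower ones (10%, against 2.09%) were Id3 and the matricellular gene Ccn1 at -0.34. Ankrd1, a nuclear cofactor, differed by -0.16 and Ccn2, a matricellular growth factor, by -0.42, both with overlapping arrays.

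Of 18 stress genes 1 was higher at an unadjusted p under 0.05, the growth arrest gene Gadd45a at 0.44. Another 1 was lower, Txnip, a thioredoxin inhibitor, at -0.56. Each is 5.56% of the list, against 2.58% of all genes higher and 2.09% lower. Against untreated cells Gadd45a differed by -0.89 in Dex cells, by -0.45 in Dex+E2 cells and by 0.10 in E2 cells. A second, dimmer Txnip probe set differed by -0.06. Of 17 sterol and lipid genes 1 was lower (5.88%, against 2.09% of all genes), the fatty acid carrier Fabp4. It read 6.93 and 5.48 in Dex+E2 cells against 7.14 and 6.95 in Dex cells, so that its difference of -0.84 ± 0.34 rests mostly on Dex+E2 replicate 2. Its other probe sets differed by -0.83, -0.15 and 0.12. Cell cycle genes had 0 of 21 at that threshold in either direction, with differences from -0.15 to 0.02. Their median was -0.04, and 17 of 21 lay below 0. Above 0 lay 19% of them, against 49.8% of all genes. The sign of the median depended on single arrays. It was 0.02 without Dex replicate 1 and 0.02 without Dex+E2 replicate 2. It was -0.11 without Dex replicate 2 and -0.10 without Dex+E2 replicate 1. The list's mean level overlapped, at 10.70 to 10.84 over the Dex+E2 arrays and 10.76 to 10.86 over the Dex arrays. Counts of 1 or 2 genes are given for MAPK regulators, TGF-beta, SRF and YAP targets, stress, sterol and lipid genes, receptor chaperones and mesenchymal markers. They changed when single arrays were left out, as did the share over all genes.

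Few markers of cell types differed between Dex+E2 and Dex cells. Of 15 epithelial markers 0 were past the unadjusted threshold, with a median of 0.05. Their mean level was 5.50 to 5.56 over the Dex+E2 arrays, above the 5.47 to 5.48 over the Dex arrays by less than 0.1. Of 16 mesenchymal markers 1 was lower (6.25%, against 2.09% of all genes), the transcription factor gene Twist1 at -0.21. Their mean level was 9.76 to 9.81 over the Dex+E2 arrays and 9.78 over both Dex arrays. Of 9 milk protein genes and 14 immune markers 0 were past it. Of 9 endothelial and adipose markers Fabp4, described above, was the 1 past it (11.1% lower, against 2.09% of all genes). In none of the 17 lists of the plot of gene lists did a gene pass the adjusted threshold (limma).

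**Figure D5:**
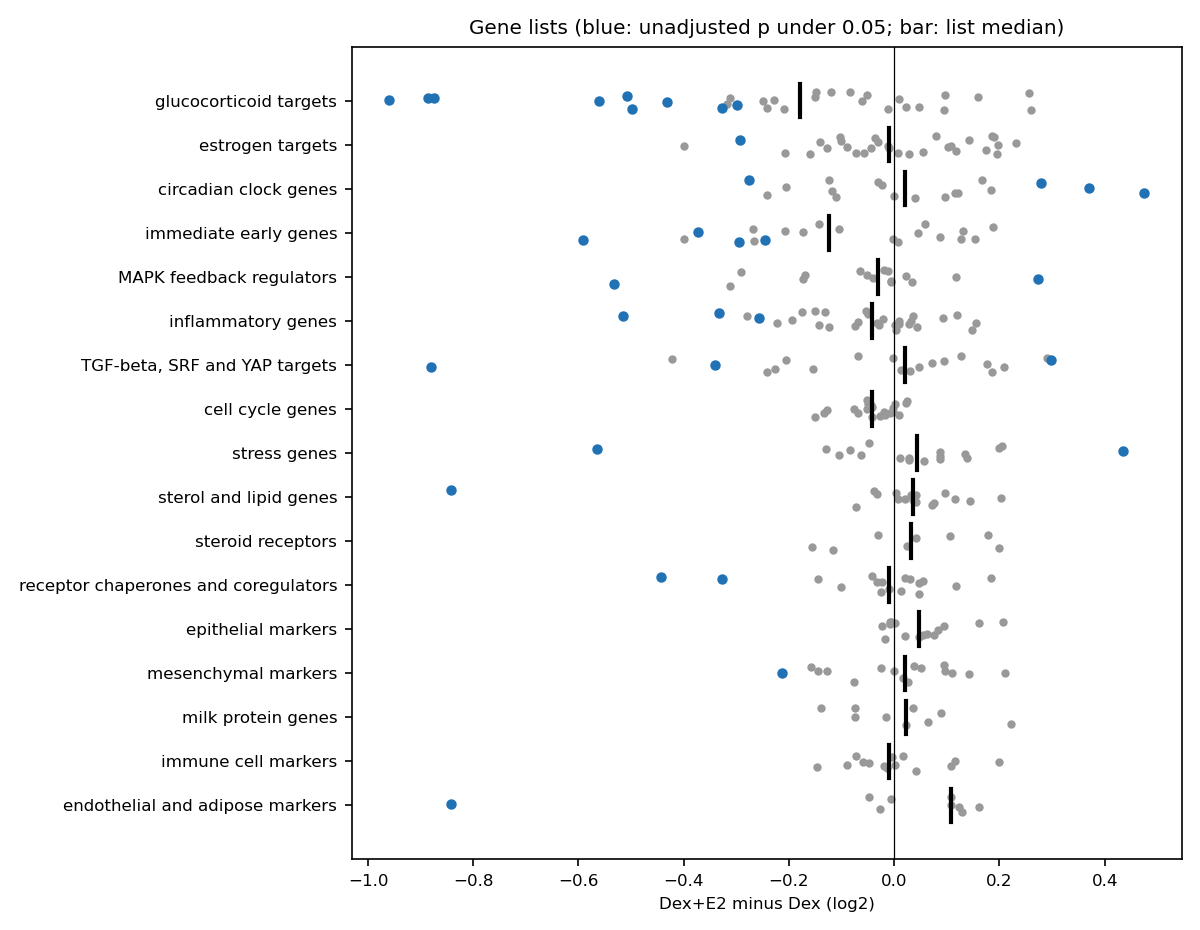
Difference between Dex+E2 and Dex (horizontal axis, log2) for the measured members of 17 gene lists, 1 point per gene, blue at an unadjusted p under 0.05, with a bar at each list's median. Glucocorticoid targets have 9 of 30 points in blue, all left of 0, and the lowest median, -0.18, while estrogen targets centre on -0.01.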

How the data were processed

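Expression was measured on Affymetrix mouse arrays, 2 per group. Deposited values are log2 signals of 45101 probe sets, made by the authors with robust multi-array averaging in Affymetrix Expression Console, per the submitters' processing notes, which give no version. This averaging equalises the arrays' distributions (medians 5.58 to 5.67) and compresses changes of dim probe sets, and the number of arrays limits the precision. Names came from the platform annotation, in which 34958 probe sets had 1 gene symbol, 932 had several and 9211 were unlisted. Of those with 1 symbol, 34754 matched RefSeq (GRCm38.p6), with 0 symbols changed. Each gene was represented by its brightest probe set, which gave 18194 genes.

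Values were fitted with limma 3.58.1 (R 4.3.3) as 4 group means on 8 arrays, with 4 residual and 6.2 prior degrees of freedom, two-sided, and adjusted over all genes with the Benjamini-Hochberg method. Adjusted p is from this fit. Errors after ± are standard errors. The script was tested on simulated data. The comparison and the gene lists were chosen with earlier results of these data known. Named genes are those past the threshold, the 10 genes of smallest p in each direction (predicted and clone names left out), up to 3 genes of smallest p per list, the genes leading the E2, Dex and interaction comparisons, and 10 genes always given. The exceptions are marked. Alternatives were the prior, array weights, arrays fitted, scaling, probe set rule, low-signal filter, replicate block and leaving out each array.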

Additional observations from a re-analysis of the deposited data

Results flagged for a closer look

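The estradiol effect on Per1 differed with and without dexamethasone. Dex+E2 minus Dex was -0.24 log2 units and E2 minus untreated was 1.97, and the test of the difference itself gave -2.21 ± 0.18 (limma, Benjamini-Hochberg adjusted p = 0.00348). The 2 Dex+E2 arrays (9.16 and 8.84) lay narrowly below both Dex arrays (9.32 and 9.17). Over all genes, 31.2% did not overlap in that comparison, in either direction. The 2 E2 arrays read 8.62 and 8.50 and the 2 untreated arrays 6.72 and 6.45. The call was lost without Dex replicate 1.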

How the results depend on the processing

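The count of 2 genes for Dex+E2 against Dex was 9 with a trended and robust prior (8 higher and 1 lower), 4 with array weights, 1 with only the 4 arrays compared, 6 after quantile normalization and 4 with arrays centred on their median, and it was 2 or 3 under the other planned settings. Leaving out 1 array at a time gave 0 to 81 genes: 0 without either untreated or either Dex array, 4 without either E2 array, 1 without Dex+E2 replicate 2 and 81 without Dex+E2 replicate 1. A group left with 1 array is assumed to vary like the others. For E2 against untreated the count of 19 was 35 with a trended and robust prior and 2 to 37 with 1 array left out. For the interaction the count of 1 was 4 with that prior, 2 after quantile normalization and 0 to 20 with 1 array left out, with 0 without Dex replicate 1, 2 without E2 replicate 1 and 20 without Dex+E2 replicate 1. Deviations of same-numbered arrays correlated over genes at 0.347 between E2 and untreated, 0.267 between Dex and E2 and 0.19 between Dex and untreated. With Dex+E2 the correlations were below 0, at -0.0705 for Dex, -0.164 for E2 and -0.26 for untreated. The main fit did not pair same-numbered arrays, and whether they share a batch was not tested. With the replicate block 3 genes were called for Dex+E2 against Dex, 17 for E2 against untreated and 1 for the interaction. The median of the 30 glucocorticoid targets ran from -0.40 to -0.08 and that of the estradiol-called genes from 0.15 to 0.19, under settings chosen after seeing the data. With single arrays left out, the share of all genes at an unadjusted p under 0.05 moved too. For the named genes, 1499 values kept their direction and their side of the threshold, 39 passed it newly, 10 no longer passed it, and 23 below the threshold changed sign. The causes of these changes were not tested. With 2 arrays a group, a gene of median standard error needs a difference of 0.214 to reach an unadjusted p of 0.05, and differences of up to 1.26 (Ttpa) missed the adjusted threshold.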
